A study of Mus musculus with 3 samples.

Results

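GATA genes encode transcription factors that read DNA through a pair of zinc fingers, and all 6 mouse members, Gata1 to Gata6, were taken by name, with every CHD7 and SOX2 peak at their ends (within 1 kb), inside them, or within 100 kb on either side. These loci held 34 of the 33035 CHD7 peaks and 124 of the 155548 SOX2 peaks. The 6 genes are set against the 21887 protein-coding genes of the RefSeq table. Peaks came from CUT&Tag, an assay in which an antibody brings the Tn5 transposase to DNA beside a chromatin protein. Wild-type mouse otocysts, the epithelial vesicles that become the inner ear, were dissected at E10.5, and 34 of them were pooled, dissociated and split into 3 samples. One received anti-CHD7, against the ATP-dependent chromatin remodeler of CHARGE syndrome, and one anti-SOX2, against an HMG-box factor of the sensory inner ear. The sample without primary antibody is not analysed here.

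GATA2 and GATA3 are the members known from otic epithelium. Gata3 is needed for otic morphogenesis and for the sensory and neural parts of the ear, and loss of a human copy causes deafness together with parathyroid and kidney defects. Gata2, better known from blood stem cells, is needed in the ear for the semicircular canals. Gata1 directs red cell and megakaryocyte formation, and Gata4, Gata5 and Gata6 act in heart and endoderm. Chromatin remodelers such as CHD7 move nucleosomes at promoters and enhancers, so peaks at a gene are a map of where the protein was detected and carry no measure of the gene's expression. The comparison asked here was whether the otic genes Gata2 and Gata3 differ from the other GATA genes in where CHD7 and SOX2 peaks lie.

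With 1 library per antibody and 6 genes that are not replicates, there was no test of any difference, and counts and ranks describe these libraries. Each peak carries the authors' total signal, the coverage summed over its bases. Its rank is given below as the percentage of the same list with a lower total signal, and signal was never compared between lists. Read depth is unknown. The peak calling sets the borders and the number of weak peaks, and the SOX2 list is the longer one, so a peak is more often met by SOX2 than by CHD7. Exact binomial intervals cover counting error only.

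CHD7 and SOX2 peaks overlapped at Gata2 and Gata3 themselves, and at none of the other GATA genes themselves. A CHD7 peak overlapped by SOX2 lay inside the gene at 2 places in Gata2 and at 3 places in Gata3, so that all 5 CHD7 peaks at these 2 genes were shared (100%, exact 95% binomial interval 47.8% to 100%). Of the CHD7 peaks at Gata1, Gata4, Gata5 and Gata6 themselves 0 of 5 were shared (0%, upper limit 52.2%), and 4 of these 5 were at Gata4. Over all CHD7 peaks the share was 65.3%. That level lies within the interval of the otic genes and above the limit of the others, most of whose peaks came from 1 gene. Peaks of 1 gene are not independent, so no difference can be read from that limit. Over the whole list shared CHD7 peaks also ranked higher, with a median of 59.9% against 34.0% for unshared ones. The CHD7 peaks at the otic genes ranked from 10.3% to 94.4% and those at Gata4 from 1.11% to 74.9%. The part of signal in these shares was not tested. Counted singly, CHD7 was inside or at an end of both otic genes and of 2 of the other 4, against 45.2% of all protein-coding genes, and SOX2 of both otic genes and of 3 of the other 4, against 78.2%. A shared place at a gene was common: 38.8% of protein-coding genes had at least 1, as did 41.8% of those of 10 to 75 kb, a range that includes the 6 GATA genes. As many as the 2 of Gata2 were found at 10.3% of all protein-coding genes and at 7.36% of those in the length range, and as many as the 3 of Gata3 at 3.73% and 1.35%. The length range was chosen after the values were seen. The number of shared places at the otic genes was 3 instead of 5 with the stronger 50% of each list, and 1 with the 10000 strongest peaks of each list or where the maximum-signal regions had to share a base.

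Of the 5 shared places 2 lay over a RefSeq start site, 1 at Gata2 and 1 at Gata3, and the promoters are shown because the peaks differ between the start sites. The RefSeq promoter table (GRCm38.p6, the build also called mm10) held 5 start sites of 4 members, each with 250 bases before and 50 after the start. The promoter of the downstream Gata2 start, chr6:88198414-88198713 (+ strand), lay under peaks of both proteins, and that of the upstream start, chr6:88193641-88193940 (+ strand), reached the border of a SOX2 peak alone. The Gata3 promoter, chr2:9878551-9878850 (− strand), lay in peaks of both proteins, the Gata5 promoter, chr2:180334630-180334929 (− strand), in a SOX2 peak alone, and the Gata1 promoter, chrX:7967861-7968160 (− strand), in neither. They are shown 5′ to 3′, with each CpG and the one GATA motif found in capitals.
Gata2 downstream start: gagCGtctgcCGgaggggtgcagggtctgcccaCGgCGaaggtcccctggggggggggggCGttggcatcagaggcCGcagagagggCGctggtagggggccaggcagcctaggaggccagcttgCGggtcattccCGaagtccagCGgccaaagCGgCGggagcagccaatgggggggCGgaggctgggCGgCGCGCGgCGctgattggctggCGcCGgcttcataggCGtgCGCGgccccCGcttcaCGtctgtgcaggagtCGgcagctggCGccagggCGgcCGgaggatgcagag
Gata2 upstream start: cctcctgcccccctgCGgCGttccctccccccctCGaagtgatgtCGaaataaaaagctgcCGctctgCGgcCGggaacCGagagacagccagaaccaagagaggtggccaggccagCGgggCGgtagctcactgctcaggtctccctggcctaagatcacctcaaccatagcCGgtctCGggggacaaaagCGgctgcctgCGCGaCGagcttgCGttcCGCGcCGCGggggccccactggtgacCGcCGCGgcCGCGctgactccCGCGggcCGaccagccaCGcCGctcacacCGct
Gata3: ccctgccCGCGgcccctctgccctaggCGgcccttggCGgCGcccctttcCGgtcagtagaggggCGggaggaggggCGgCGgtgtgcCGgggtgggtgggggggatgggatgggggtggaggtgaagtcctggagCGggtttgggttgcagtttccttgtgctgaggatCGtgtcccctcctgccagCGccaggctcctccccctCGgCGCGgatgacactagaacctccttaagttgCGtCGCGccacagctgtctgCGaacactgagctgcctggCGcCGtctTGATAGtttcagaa
Gata5: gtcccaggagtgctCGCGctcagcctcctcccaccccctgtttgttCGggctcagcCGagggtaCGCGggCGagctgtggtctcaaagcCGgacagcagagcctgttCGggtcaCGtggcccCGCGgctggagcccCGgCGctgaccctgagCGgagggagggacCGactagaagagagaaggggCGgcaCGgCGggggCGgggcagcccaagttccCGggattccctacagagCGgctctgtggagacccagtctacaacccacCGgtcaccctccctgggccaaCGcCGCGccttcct
Gata1: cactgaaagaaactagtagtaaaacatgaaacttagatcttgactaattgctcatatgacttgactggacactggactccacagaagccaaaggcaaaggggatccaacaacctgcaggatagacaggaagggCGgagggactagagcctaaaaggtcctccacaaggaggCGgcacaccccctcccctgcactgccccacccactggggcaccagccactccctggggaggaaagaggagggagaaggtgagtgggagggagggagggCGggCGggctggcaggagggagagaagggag

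CpG content set the Gata1 promoter apart from the others printed. There were 29 and 32 CpGs at the downstream and upstream Gata2 starts and 22 at Gata3, against 26 at Gata5 and 4 at Gata1. The median over 21263 promoters of protein-coding genes was 13 CpGs, with an interquartile range of 4 to 24. The G and C content was 73.7% at the downstream and 69.3% at the upstream Gata2 start, 67.3% at Gata3, 69.7% at Gata5 and 57.3% at Gata1, against a median of 56.3%. The 4 promoters with many CpGs thus include the 2 that lay under both proteins and 2 that lay under SOX2 or beside it.

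The 5 windows were also searched for motif letters. Of the 5 promoters the Gata3 promoter held a GATA motif, TGATAG, at bases 287 to 292 of the window and thus just downstream of the start. The search covered AGATAA and AGATAG, and also the forms that open with T, TGATAA and TGATAG, on both strands. At least 1 of these was in 26.0% of all promoters of protein-coding genes, so 1 of 5 was close to the general share. The SOX letters searched, ACAAAG and ACAATG together with the shorter ACAAT that is part of ACAATG, were in none of the 5 on either strand, and 38.9% of all promoters held one. A match is a run of letters, and nothing about either protein follows from its presence or absence.

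**Figure D1:**
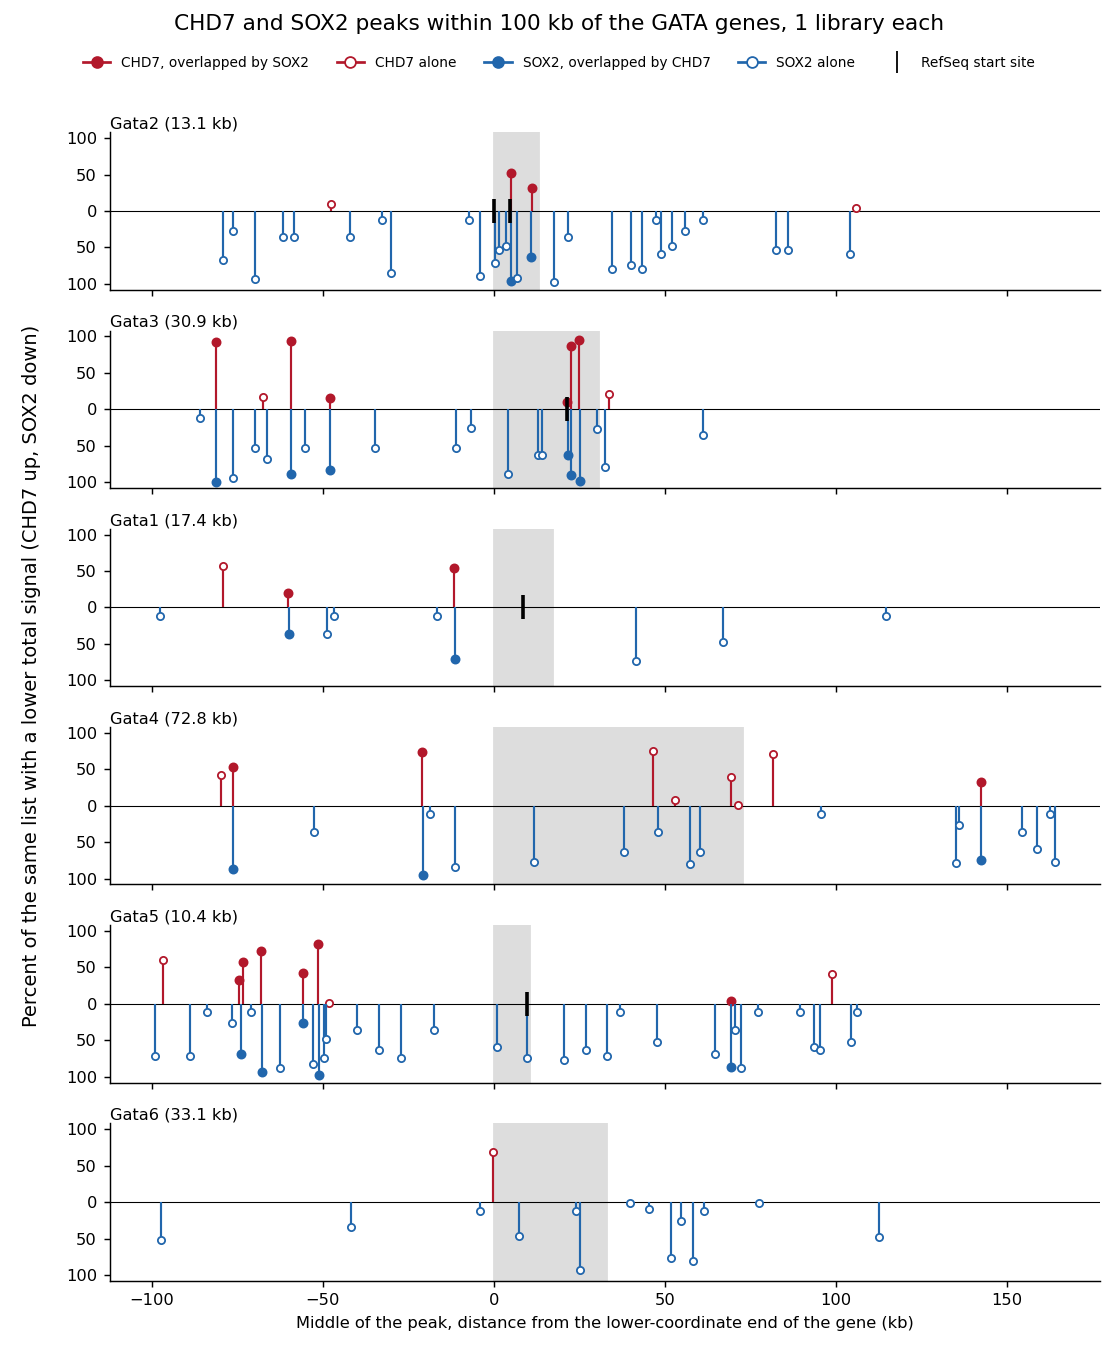
CHD7 peaks (red, upward) and SOX2 peaks (blue, downward) of the 6 GATA loci, placed by the distance of the peak's middle from the lower-coordinate end of the gene in kb, with the height giving the percentage of the same list with a lower total signal. Grey marks the gene, black ticks its RefSeq start sites where the table has them, and filled points peaks overlapped by the other list; filled points lie in the grey band at Gata2 and Gata3, where 3 more CHD7 peaks of Gata3 are filled outside it, all filled points of Gata1, Gata4 and Gata5 lie outside the band, and Gata6 has none.

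Gata2 (chromosome 6, 88193891 to 88207032, mm10) carried its strongest overlap at the downstream start site. The CHD7 peak at 88198351 to 88199200 had a total signal of 674, stronger than 52.6% of the CHD7 list. It shared 800 bases with the SOX2 peak at 88198351 to 88199150, whose total signal of 3255 was stronger than 96.2% of the SOX2 list. The maxima of the 2 peaks lay 50 bases apart, and the Gata2 start site at 88198664 was under both peaks. CHD7 was thus of middle rank and SOX2 of high rank at the same place. That is usual for shared places: over all shared peaks the median rank was 59.9% for CHD7 and 84.7% for SOX2.

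The other shared place in Gata2 was nearer the gene's higher-coordinate end, which is its 3′ end. A CHD7 peak at 88204551 to 88205750 (total signal 547, stronger than 31.0% of its list) shared 700 bases with a SOX2 peak at 88204501 to 88205250 (total signal 1173, stronger than 63.4%). Both were weaker in rank than the peaks at the downstream start.

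The upstream Gata2 start, at 88193891, differed from the downstream one. The nearest CHD7 peak was 4460 bases away. A SOX2 peak at 88193901 to 88194550 (total signal 1290, stronger than 71.1% of its list) began 10 bases from it. With 3 more SOX2 peaks alone inside the gene, the strongest at 88200001 to 88201300 (total signal 2346, stronger than 92.4%), Gata2 held 6 SOX2 peaks in all. The SOX2 peak at 88197001 to 88197700, stronger than 47.6% of the list, covered the start site of Gm38708, a long noncoding RNA gene that runs across the first part of Gata2.

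Around Gata2 the peaks were mostly of SOX2, as in every GATA locus. The median protein-coding gene had 4 CHD7 and 18 SOX2 peaks within 100 kb. Within 100 kb there were 4 CHD7 and 29 SOX2 peaks, and the 2 CHD7 peaks outside the gene were weak, stronger than 10.3% and 4.11% of the list and overlapped by no SOX2 peak. One of them, at 88299301 to 88300050, lay inside Eefsec, which encodes the elongation factor for selenocysteine. The strongest SOX2 peak of the locus stood 3.77 kb past the 3′ end of Gata2, at 88210801 to 88211950 (total signal 3519, stronger than 96.8%), with no CHD7 peak. Another, at 88123451 to 88124600 (total signal 2434, stronger than 93.0%), lay 69.3 kb before the gene.

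Gata3 (chromosome 2, 9857078 to 9887953) held the strongest overlapping peaks, by total signal, of the GATA genes themselves. They lay in a row at and before its only start site in the promoter table, at 9878600, which is inside the outer borders of the gene. The first, a CHD7 peak at 9877901 to 9879000 over the start site, was weak, with a total signal of 465, stronger than 10.3% of its list. It held the whole of a SOX2 peak at 9878401 to 9878900 (total signal 1173, stronger than 63.4%), and their maxima coincided.

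The other 2 places in the row were strong in both lists. The CHD7 peak at 9879151 to 9880100 (total signal 1289, stronger than 86.1%) lay within the SOX2 peak at 9879101 to 9880300 (total signal 2082, stronger than 90.3%). The CHD7 peak at 9880801 to 9882950 (total signal 2063, stronger than 94.4%) shared 1500 bases with the SOX2 peak at 9881451 to 9883300 (total signal 4457, stronger than 98.0%). This last CHD7 peak, 2150 bases wide, covered the start site of 4930412O13Rik, a long noncoding RNA gene before Gata3. At Gata3 the peaks over the start site at 9878600 were therefore the weakest of the row in both lists, whereas at Gata2 the downstream start carried the stronger pair.

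Another group of shared places lay beyond the 3′ end of Gata3, between protein-coding genes. The strongest SOX2 peak in any of the 6 loci was there, 80.4 kb from the gene, at 9775001 to 9776650, with a total signal of 10556, stronger than 99.7% of the list. It contained a CHD7 peak at 9775151 to 9776500 (total signal 1717, stronger than 91.9%). A CHD7 peak at 9797401 to 9798000 (total signal 1986, stronger than 93.9%) lay 59.1 kb from the gene within a SOX2 peak of total signal 1994, stronger than 89.3%. At 47.7 kb a weak CHD7 peak, 9808901 to 9809350 (total signal 483, stronger than 15.6%), lay within a SOX2 peak of total signal 1642, stronger than 83.5%. SOX2 was of high rank at all 3 of these places and CHD7 at 2 of them. Over all shared peaks the median rank was 84.7% for SOX2 and 59.9% for CHD7.

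In all, Gata3 had 8 CHD7 and 20 SOX2 peaks within 100 kb, and 6 of the 8 CHD7 peaks were shared. Both CHD7 peaks alone were weak, stronger than 17.2% and 20.5% of the list, and the one at 9890301 to 9891200 was 2.35 kb upstream of the gene's outer border and 300 bases from a SOX2 peak. SOX2 alone was found at 4 places in the gene, including a narrow peak at 9861051 to 9861250 (total signal 1965, stronger than 89.1%) towards the 3′ end and a weak one at its upper border, stronger than 26.9%. The noncoding gene 9230102O04Rik overlaps that border.

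Gata4 (chromosome 14, 63198914 to 63271712), an early regulator of heart and endoderm, had peaks of both proteins inside the gene but in separate places. Its body and ends held 4 CHD7 peaks, a number reached by 3.78% of all protein-coding genes and by 0.612% of those of 10 to 75 kb, and 5 SOX2 peaks, and none of them overlapped. At 72.8 kb it is the longest of the 6 genes and near the top of that length range. The CHD7 peak at 63244351 to 63246400 (total signal 934, stronger than 74.9%) ended 200 bases before a SOX2 peak of middle rank, stronger than 35.8%. The other CHD7 peaks, at 63251301 to 63252200, 63267351 to 63269000 and 63269551 to 63271100, were stronger than 7.25%, 39.9% and 1.11% of the list, and the nearest SOX2 peaks were 3750, 7950 and 10150 bases away. The last one lay at the higher-coordinate end of the gene and was among the weakest in the CHD7 list.

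Gata6 (chromosome 18, 11052510 to 11085636), a partner of Gata4 in heart and endoderm, had CHD7 at an end and SOX2 further inside. A single CHD7 peak, at 11051951 to 11052750 (total signal 824, stronger than 68.1%), covered its lower-coordinate end and the adjoining end of the noncoding gene Gata6os, and no other CHD7 peak lay within 100 kb. The nearest SOX2 peak was 3200 bases away. Of 14 SOX2 peaks in the locus 3 lay inside the gene, the strongest at 11077451 to 11077650 (total signal 2463, stronger than 93.1%).

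Gata5 (chromosome 2, 180325088 to 180335503), which acts in heart and endoderm as well, had SOX2 at both ends and no CHD7 at the gene. The SOX2 peak at 180334501 to 180335050 (total signal 1349, stronger than 74.3%) covered its start site at 180334679, and the one at 180325501 to 180326200 (total signal 1114, stronger than 59.3%) lay at the 3′ end. The nearest CHD7 peak was 57279 bases from the start site. Gata1 (chromosome X, 7959260 to 7976663), the erythroid member, had no peak of either list inside or at its ends, with the nearest CHD7 and SOX2 peaks 19510 and 19560 bases from its start site.

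At the outer gene ends the otic genes did not stand out. CHD7 was at an end of neither Gata2 nor Gata3 and at an end of 2 of the 4 other genes, Gata4 and Gata6, so 2 of 6 in all, against 30.8% of all protein-coding genes. SOX2 was at an end of both Gata2 and Gata3 and of 1 of the other 4, Gata5, or 3 of 6 in all, against 59.7% of all genes. No GATA gene had both at its ends, against 28.3%. Taken at RefSeq start sites, both proteins were over the same start at Gata2 and Gata3 and not at Gata5 or Gata1, and 22.9% of 17492 protein-coding genes in the table had such a start. CHD7 was over a start at 27.6% and SOX2 at 41.4% of these genes. Gata5 and Gata1 had no CHD7 peak inside or at their ends, so they could not have shown both proteins at a start. Start sites of Gata4 and Gata6, the members with CHD7 at an end, were not analysed here. The start sites thus give no contrast between the otic and the other genes.

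**Figure D2:**
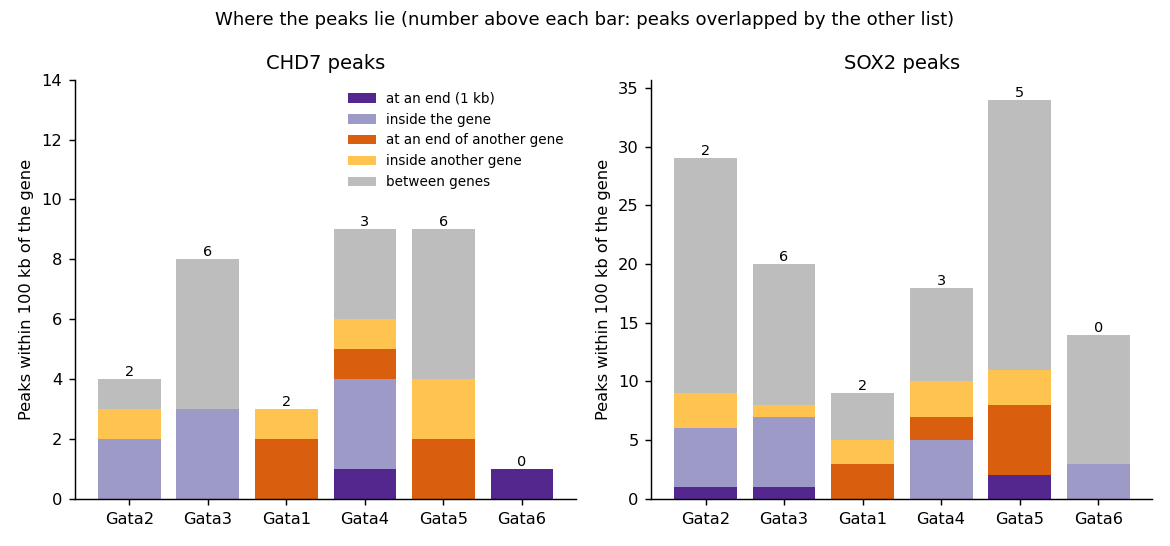
Number of CHD7 peaks (left) and SOX2 peaks (right) within 100 kb of each GATA gene, stacked by place, with Gata2 and Gata3 first. The number above each bar counts peaks overlapped by the other list, which for CHD7 was 2 at Gata2, 6 at Gata3, 2 at Gata1, 3 at Gata4, 6 at Gata5 and 0 at Gata6.

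The shared places in the loci of the other GATA genes lay at or inside neighbouring protein-coding genes or between such genes. Which gene a peak acts on was not tested. In the Gata1 locus the 2 shared CHD7 peaks lay at ends of other genes: one, stronger than 53.7% of the list, at Hdac6, a tubulin deacetylase gene, and one, stronger than 19.7%, between the adjoining ends of Pqbp1 and Timm17b. In the Gata4 locus 3 CHD7 peaks were shared, at an end of the cathepsin gene Ctsb (stronger than 53.3%), inside the squalene synthase gene Fdft1 (stronger than 73.7%) and within the noncoding gene Gm4151 (stronger than 32.8%). The nearest of these 3 was 20.5 kb from Gata4.

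The Gata5 locus was the densest of all and its shared places were again away from the GATA gene. Of its 9 CHD7 and 34 SOX2 peaks, 6 CHD7 peaks were shared, the strongest at the ends of Cables2 and Rbbp8nl (total signal 1125 for CHD7, stronger than 82.4%, and 3665 for SOX2, stronger than 97.0%). Another was at Rps21, a ribosomal protein gene (stronger than 72.2% for CHD7 and 94.1% for SOX2). A CHD7 peak inside Cables2, at 180269001 to 180269450 (stronger than 42.5%), met a SOX2 peak stronger than 25.6%. Between genes, the CHD7 peaks at 180250101 to 180251150 and 180251401 to 180252150, stronger than 32.2% and 57.7%, met the same SOX2 peak, stronger than 68.4%. On the other side of Gata5 a weak CHD7 peak, stronger than 4.11%, met a SOX2 peak stronger than 86.7% within Mir1a-1hg, the host of muscle microRNAs. Single SOX2 peaks at an end of Lama5, a laminin gene, and of Suv39h1, a histone methyltransferase gene near Gata1, were overlapped by no CHD7 peak.

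Counted over whole loci, the otic and the other GATA genes lay close together. CHD7 and SOX2 peaks were present in all 6 loci, as within 100 kb of 92.5% and 99.3% of protein-coding genes, and a shared place in 5 of 6, as at 86.9%. The loci of Gata2 and Gata3 held 2.70 CHD7 peaks per 100 kb and those of the other genes 2.36, a ratio of 1.15. For SOX2 the densities were 11.0 and 8.03, a ratio of 1.37, and for CHD7 peaks overlapped by SOX2 they were 1.80 and 1.18, a ratio of 1.53. The median protein-coding gene had 1.46, 7.32 and 0.979 peaks per 100 kb. The direction of the CHD7 and of the shared ratio rested on Gata3, without which they were 0.797 for both. The CHD7 ratio also fell below 1 without Gata6, at 0.902, and with the stronger 50% of each list, at 0.956.

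Individual genes spread widely on each side. CHD7 peaks per 100 kb were 1.88 at Gata2 and 3.47 at Gata3, against 1.38 at Gata1, 3.30 at Gata4, 4.28 at Gata5 and 0.429 at Gata6. As many as at Gata3 were found at 8.68% of protein-coding genes, and as many as at Gata2 at 37.7%. SOX2 peaks per 100 kb were 13.6 at Gata2 and 8.66 at Gata3, against 4.14 at Gata1, 6.60 at Gata4, 16.2 at Gata5 and 6.01 at Gata6. As many SOX2 peaks as at Gata2 were found at 10.7% of protein-coding genes, as many as at Gata3 at 37.6% and as many as at Gata5 at 4.77%. As many CHD7 peaks as at Gata5 were found at 4.33%. For SOX2 both otic genes thus lay above Gata1, Gata4 and Gata6. For CHD7 Gata2 lay below Gata4 and Gata3 above it. Gata5 was above both otic genes for each protein.

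**Figure D3:**
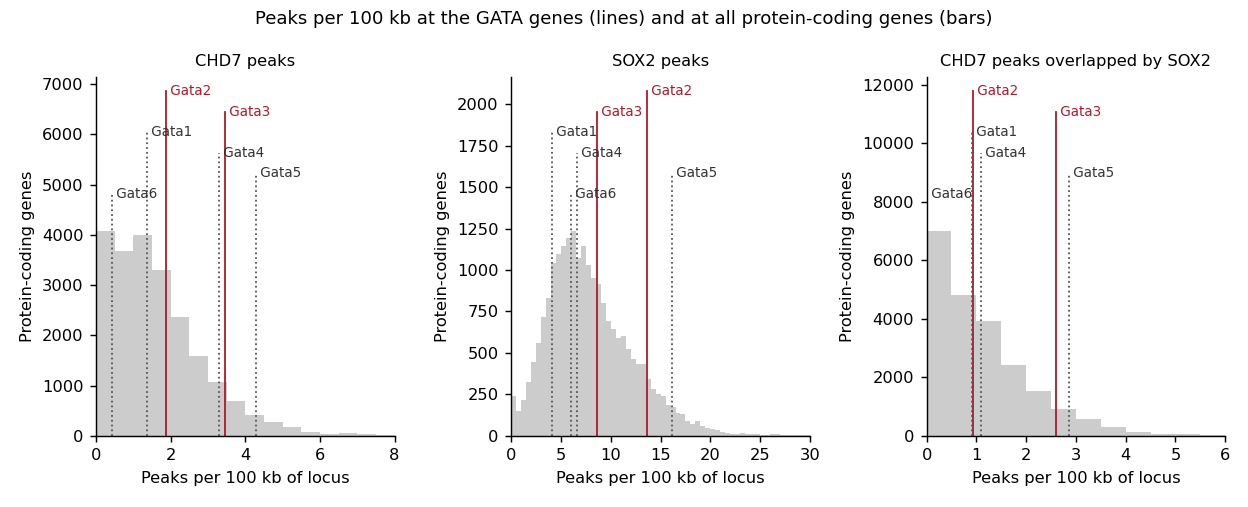
Peaks per 100 kb of locus (gene with 100 kb on each side) for CHD7, SOX2 and CHD7 peaks overlapped by SOX2; grey bars count the 21887 protein-coding genes, solid red lines mark Gata2 and Gata3, dotted grey lines the other GATA genes. Gata5 lies to the right of Gata2 and Gata3 in all 3 panels, and Gata6 is at 0 in the last.

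The share of CHD7 peaks with SOX2 over the 100 kb loci had an interval that held the general level on both sides. It was 8 of 12 in the loci of Gata2 and Gata3, or 66.7% (exact 95% binomial interval 34.9% to 90.1%), and 11 of 22 in the loci of the other genes, or 50% (28.2% to 71.8%), against 65.3% of all CHD7 peaks. For SOX2 peaks it was 8 of 49, or 16.3% (7.32% to 29.7%), and 10 of 75, or 13.3% (6.58% to 23.2%), against 14.7% of all SOX2 peaks. The intervals of the 2 sides overlapped widely for both proteins. The CHD7 shares moved with the settings, to 75% at Gata2 and Gata3 and 22.2% at the other genes with loci of 50 kb on each side, to 50% and 22.7% with the SOX2 list cut to the length of the CHD7 list, and to 16.7% and 13.6% by maximum-signal regions. Of the shared CHD7 peaks 5 of 8 were at the otic gene itself, and 0 of 11 at the other GATA genes themselves. These are the same peaks as in the count at the genes themselves, and the share over all protein-coding genes was not computed. With loci of 50 kb on each side the density ratio of shared peaks was 6.56, and 1.30 with 200 kb.

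Counted by pair, overlapping peaks of the otic loci ranked somewhat higher in the SOX2 list. The median SOX2 peak of the 8 pairs at Gata2 and Gata3 was stronger than 89.8% of the list (range 63.4% to 99.7%), against 74.3% (25.6% to 97.0%) in the 11 pairs of the other loci and a median of 84.7% over all shared SOX2 peaks. For CHD7 the medians were 69.3% (10.3% to 94.4%) and 53.3% (4.11% to 82.4%), against 59.9% over all shared CHD7 peaks. The 11 pairs hold 10 SOX2 peaks, because a SOX2 peak of the Gata5 locus, stronger than 68.4%, met neighbouring CHD7 peaks and entered with each. That repeat lowers the 74.3%, whereas the 84.7% counts each peak once. The ranges overlapped for both proteins. By total signal the 4 strongest CHD7 peaks of the 6 loci were all shared and all in the Gata3 locus. By maximum signal those at 9797401 to 9798000 (5.65) and 9775151 to 9776500 (4.28) still came first. Unshared peaks of the Gata5 (3.37), Gata4 and Gata6 loci (3.28 each) then stood above those at 9879151 (3.01) and 9880801 (2.64).

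**Figure D4:**
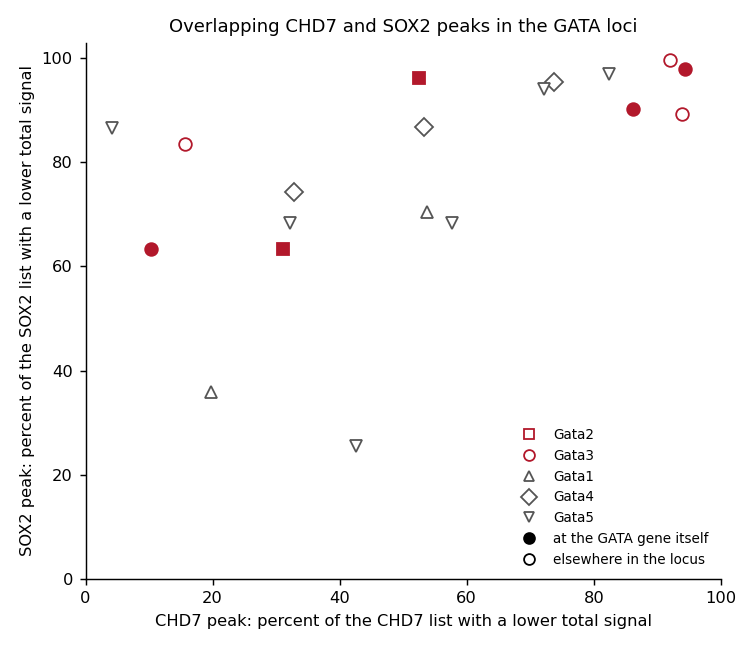
Overlapping CHD7 and SOX2 peaks in the GATA loci, with the percentage of the CHD7 list (horizontal) and of the SOX2 list (vertical) that has a lower total signal; red symbols are Gata2 and Gata3, grey symbols Gata1, Gata4 and Gata5, and filled symbols lie at the GATA gene itself. All 5 filled symbols are red, and the 4 points furthest to the right belong to the Gata3 locus.

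GATA factors work with cofactors, and peaks at their genes were counted over a list of 19 cofactors, chromatin partners and related zinc finger genes. CHD7 was at an end of 11 of 19 and SOX2 at an end of 13, with both at 8, against the 30.8%, 59.7% and 28.3% of all protein-coding genes. Both were at Zfpm1, the gene of the GATA cofactor FOG1, which held 3 CHD7 peaks, all shared, and 17 SOX2 peaks. Both were also at the red cell factor gene Klf1 and at Gatad2a, Gatad2b, Hdac1, Hdac2, Mbd3 and Mta2, whose products belong to the NuRD deacetylase complex. The list holds 8 NuRD genes. They gave 7 of the 11 genes with CHD7 at an end, 7 of the 13 with SOX2 and 6 of the 8 with both. For CHD7 and for both, the counts of the list thus rested largely on NuRD genes. Of the 2 NuRD genes without both, Chd4 had CHD7 alone and Mta1 SOX2 alone at an end. Neither was at an end of the LIM adaptor genes Lmo2 and Ldb1 or of the germ cell gene Zglp1. Ldb1 did hold 1 CHD7 peak inside the gene, which SOX2 overlapped, whereas Lmo2 and Zglp1 held no peak of either list. A shared place inside or at an end was found at 12 of the 19 genes, 7 of them NuRD genes, against 38.8% of all protein-coding genes. Zfpm2, the gene of FOG2, had SOX2 at an end and 4 CHD7 peaks in its 450 kb, 2 of them shared. Trps1, which encodes an atypical GATA repressor, had CHD7 at an end and no shared peak.

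Marker genes gave the setting of these peaks. CHD7 and SOX2 were both at an end of 8 of 14 otocyst genes, 1 of 10 blood genes, 0 of 8 endothelial genes and 2 of 10 heart and endoderm genes, against 28.3% of all protein-coding genes. Taken singly, CHD7 was at 9, 1, 0 and 3 of them, against 30.8% of all genes, and SOX2 at 9, 5, 6 and 4, against 59.7%. CHD7 at the heart and endoderm genes and SOX2 at the otocyst genes were thus close to the share of all genes. Gata1 belongs by its known role with the blood genes, and Gata4 to Gata6 with those of heart and endoderm. Peaks do not measure expression, so the tissue label was not checked against marker RNA, and the part of other cell types in the peaks was not tested.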

How the data were processed

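CUT&Tag libraries of pooled wild-type E10.5 mouse otocysts were analysed, 1 for CHD7 and 1 for SOX2. Build mm10, Bowtie2, deepTools and SEACR are listed per the submitters' processing notes. Not given in the sources used here is how they were set and whether the control entered. The signal values deposited for each peak are its total and maximum coverage, on a scale that is likewise not given; ranks used total signal within a list. Coordinates count from 1.

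Genes and promoters came from RefSeq (GRCm38.p6). Gene ends are outer borders, and exons and introns were not told apart. A peak was at an end within 1 kb of a border, shared with at least 1 base in common, and in a locus within 100 kb. Shares have exact Clopper-Pearson intervals at 95%. Named were all members, neighbours with a peak at an end, all cofactors with both proteins or neither at an end, and the strongest and all shared peaks; Eefsec, Chd4, Mta1, Zfpm2, Trps1, other CHD7 peaks, the length range of 10 to 75 kb and the CpG marks were chosen after their values were seen. Members and lists were chosen with earlier results of these data known. Counting was tested on simulated data. Software was Python 3.11.15 with scipy 1.17.1, numpy 2.4.6, matplotlib 3.10.9 and pandas 2.3.3. Alternatives were other peak sets, windows and overlap rules, and leaving out each gene.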

Additional observations from a re-analysis of the deposited data

How the results depend on the processing

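Overlap at the otic genes themselves depended on how many peaks were kept: the 5 shared CHD7 peaks at Gata2 and Gata3 became 3 with the stronger 50% of each list, 3 with the SOX2 list cut to the length of the CHD7 list, and 1 each with the 10000 strongest peaks and where the maximum-signal regions had to share a base. These alternatives were added after seeing the data; as they can take peaks away but add none, the count of 0 at the other GATA genes could not change under them. The ratio of CHD7 density, 1.15, turned to 0.956 with the stronger 50%, 0.797 without Gata3 and 0.902 without Gata6, and was 1.94 with 50 kb. The SOX2 ratio, 1.37, stayed above 1 throughout and was 3.50 with the 10000 strongest peaks and 2.59 with the SOX2 list cut. The shared ratio, 1.53, turned to 0.797 without Gata3, and was 2.52 with the SOX2 list cut, 6.56 with 50 kb, 2.80 without peaks at ends of other genes and 2.61 without Gata5. The share of CHD7 peaks with SOX2 at Gata2 and Gata3 was 100% with the stronger 50% and 16.7% by maximum-signal regions. At the other genes it was 22.7% with the SOX2 list cut, 22.2% with 50 kb and 13.6% by maximum-signal regions. Of the GATA genes, CHD7 was at an end of 1 with 500 bases, 1 with the stronger 50% and 0 with the 10000 strongest, SOX2 at 0 with the 10000 strongest, and both at 1 with 2 kb and at 2 where start sites, added after seeing the data, replaced ends. Of 84 counts of single genes 39 stayed within 1.5 times, 12 of 48 for loci and 27 of 36 for peaks inside the gene. Those inside include counts of 0, at Gata1 and Gata5 for both proteins and at Gata6 for CHD7. These could not rise under the alternatives used, so their staying at 0 says nothing. The causes were not tested. No paired analysis was possible because each antibody had 1 library.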
